A study of Mus musculus with 3 samples.

Results

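The 8 genes described here encode components and regulators of the complement system: C3, C4b, C7, C1ra, C1s1, Serping1, Cd55 and Cd59a. They were taken by symbol as 8 of the 31730 genes in a single-cell RNA-seq count matrix of mouse neonatal lung mesenchyme, and all 8 were present. The 3 libraries hold 6142 cells, and each cell carries the authors' cell type. All pups were Fgf18CreERT2/+, ROSATDTomato/+ and PdgfraEGFP/+, were given tamoxifen between postnatal day 2 and day 5, and gave lung cells at day 7. Tamoxifen switches on tdTomato in cells whose Fgf18 locus drives the CreERT2 recombinase, so tdTomato marks the Fgf18 lineage, and the EGFP allele reports Pdgfra. Live cells were sorted by GFP and tdTomato into a GFP-high tdT-high, a GFP-high tdT-negative and a GFP-low tdT-negative gate, and each gate gave 1 library. The sources used here do not give the number of pups behind a library, but each library held cells with Xist and cells with Y-linked transcripts, so each drew on more than 1 pup. Each gate therefore stands on a single library without a replicate, differences between gates have no test, and the intervals below cover counting error only.

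Complement is a cascade of plasma proteins that tags and lyses targets. In the classical pathway, C1q binds a target and carries the serine proteases C1r and C1s, which cleave C4 and C2; the resulting convertase cleaves C3, the central component, and the terminal components C5 to C9 then assemble into a membrane pore. Most plasma complement comes from the liver, but fibroblasts are known to make several components locally. In mice C1ra and C1s1 encode C1r and C1s, C4b encodes C4 and C7 encodes a component of the pore. Serping1 encodes the C1 inhibitor, which inactivates C1r and C1s. Cd55 encodes decay-accelerating factor, which takes convertases apart on the cell surface, and Cd59a encodes a surface protein that stops the pore from completing.

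Promoters are shown for C1ra and C1s1, whose levels followed each other most closely over the cell types, and for C3 and C7, which were highest in different types. Each line is the stretch of 250 bases before the RefSeq start on GRCm38.p6, 5′ to 3′ on the gene's strand, with motif matches in capitals. The window is chr6:124512371-124512620 (plus strand) for C1ra and chr6:124542360-124542609 (minus strand) for C1s1. It is chr17:57228137-57228386 (minus strand) for C3 and chr15:5063774-5064023 (minus strand) for C7.
C1ra: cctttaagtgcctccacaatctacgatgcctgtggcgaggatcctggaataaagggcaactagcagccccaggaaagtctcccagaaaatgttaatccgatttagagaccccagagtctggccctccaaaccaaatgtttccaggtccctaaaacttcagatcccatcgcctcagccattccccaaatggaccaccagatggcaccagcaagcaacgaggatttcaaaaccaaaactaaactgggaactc
C1s1: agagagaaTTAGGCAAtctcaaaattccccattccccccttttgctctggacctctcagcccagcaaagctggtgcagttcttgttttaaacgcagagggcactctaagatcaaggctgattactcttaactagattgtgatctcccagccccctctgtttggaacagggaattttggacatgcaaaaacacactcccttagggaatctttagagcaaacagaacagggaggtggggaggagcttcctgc
C3: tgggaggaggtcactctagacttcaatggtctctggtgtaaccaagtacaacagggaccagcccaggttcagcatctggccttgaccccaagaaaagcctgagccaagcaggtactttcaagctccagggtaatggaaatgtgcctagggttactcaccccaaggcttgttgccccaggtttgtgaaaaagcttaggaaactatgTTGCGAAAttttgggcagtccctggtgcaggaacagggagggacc
C7: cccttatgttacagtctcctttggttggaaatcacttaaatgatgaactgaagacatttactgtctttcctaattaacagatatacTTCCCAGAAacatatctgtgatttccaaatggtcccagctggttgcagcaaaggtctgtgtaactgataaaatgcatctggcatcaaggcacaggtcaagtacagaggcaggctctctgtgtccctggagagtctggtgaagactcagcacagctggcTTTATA
The following 4 motifs were searched on both strands: the TATA box (TATAAA), a C/EBP-type motif (TTGCNNAA), a STAT-type motif (TTCNNNGAA) and an IRF-type motif (GAAANNGAA). The C3 window holds a C/EBP-type match, TTGCGAAA, starting 45 bases before the start, and the C1s1 window holds one on the opposite strand, TTAGGCAA, 242 bases before it. The C7 window holds a STAT-type match, TTCCCAGAA, 164 bases before the start and, on the opposite strand, the TATA motif, read as TTTATA, 6 bases before it. None of the 4 motifs was found in the C1ra window. The GENCODE M21 start of C1ra, at 124512405, lies inside that window, so most of it falls within the gene in that annotation. Among 32851 promoter windows of that length, 12.4% hold TATAAA, 9.56% TTGCNNAA, 7.02% TTCNNNGAA and 7.13% GAAANNGAA. A match is a description of letters, not a binding site. Windows were found for 6 of the 8 genes; Cd59a holds an IRF-type match, GAAAGGGAA, 187 bases before the start, and Cd55 holds none of the 4 motifs.

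C1ra lies on chr6:124512405-124523443 (plus strand) and C1s1 on chr6:124530345-124542359 (minus strand), tail to tail with 6901 bases between them (GRCm38, GENCODE M21). C1rb, a second mouse C1r gene, starts 27934 bases beyond C1s1. C3 (chr17:57203970-57228136) and C4b (chr17:34728380-34743882) share a chromosome, as do Serping1 (chr2:84765387-84775444) and Cd59a (chr2:104095801-104115354). C7 lies on chr15:4988762-5063740 and Cd55 on chr1:130439027-130462744.

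The GFP-high tdT-high library held 1511 cells and 34506226 UMIs (unique molecular identifiers, each counting 1 captured RNA molecule), the GFP-high tdT-negative library 3347 cells and 68692834 UMIs, and the GFP-low tdT-negative library 1284 cells and 26586489 UMIs. Median UMIs per cell lay between 19629 and 22401, and 4 cell barcodes occurred in more than 1 library. Counts of all cells with the same library and type were added up and given per 1000000 UMIs (CPM) with an exact 95% Poisson interval. A share of cells with a UMI was taken after each cell had been thinned at random to 5000 UMIs, so that deep cells do not count as positive more easily, and has an exact Clopper-Pearson interval. Levels are compared between cells for 1 gene, not between genes. The authors' types are AdvFB, MatFB-Type 1, MatFB-Type 2, MatFB-Im,Cuff, 3 MyoFB types (IMR, Int and Ter) and 3 DivFB types. A list of 12 adventitial fibroblast markers summed highest in AdvFB, at 17852 CPM among GFP-high tdT-negative cells and 9683 CPM among GFP-low tdT-negative cells. A list of 10 alveolar fibroblast markers summed highest in MatFB-Type 2 sorted as GFP-low tdT-negative, at 17944 CPM, and the myofibroblast list summed highest in MyoFB. Markers of 10 immune genes summed to 9.17 to 43.7 CPM over the groups, with at most 2 of the 10 at 10 CPM or more in a group.

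Most UMIs of the early classical pathway genes came from AdvFB, which held 9.26% of all UMIs of the 3 libraries. AdvFB contributed 81.1% of the C3 UMIs, 68.0% of those of C1s1, 66.1% of C4b, 54.9% of C1ra, 47.0% of Serping1 and 63.0% of Cd55. The other pair went elsewhere: C7 came to 67.1% from MatFB-Type 2 and to 23.0% from MatFB-Type 1, and 4.35% from AdvFB, while 6.26% of the Cd59a UMIs were from AdvFB and 53.9% from MyoFB, which held 67.2% of all UMIs. These shares depend on how many cells of each type were sorted and captured.

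**Figure D1:**
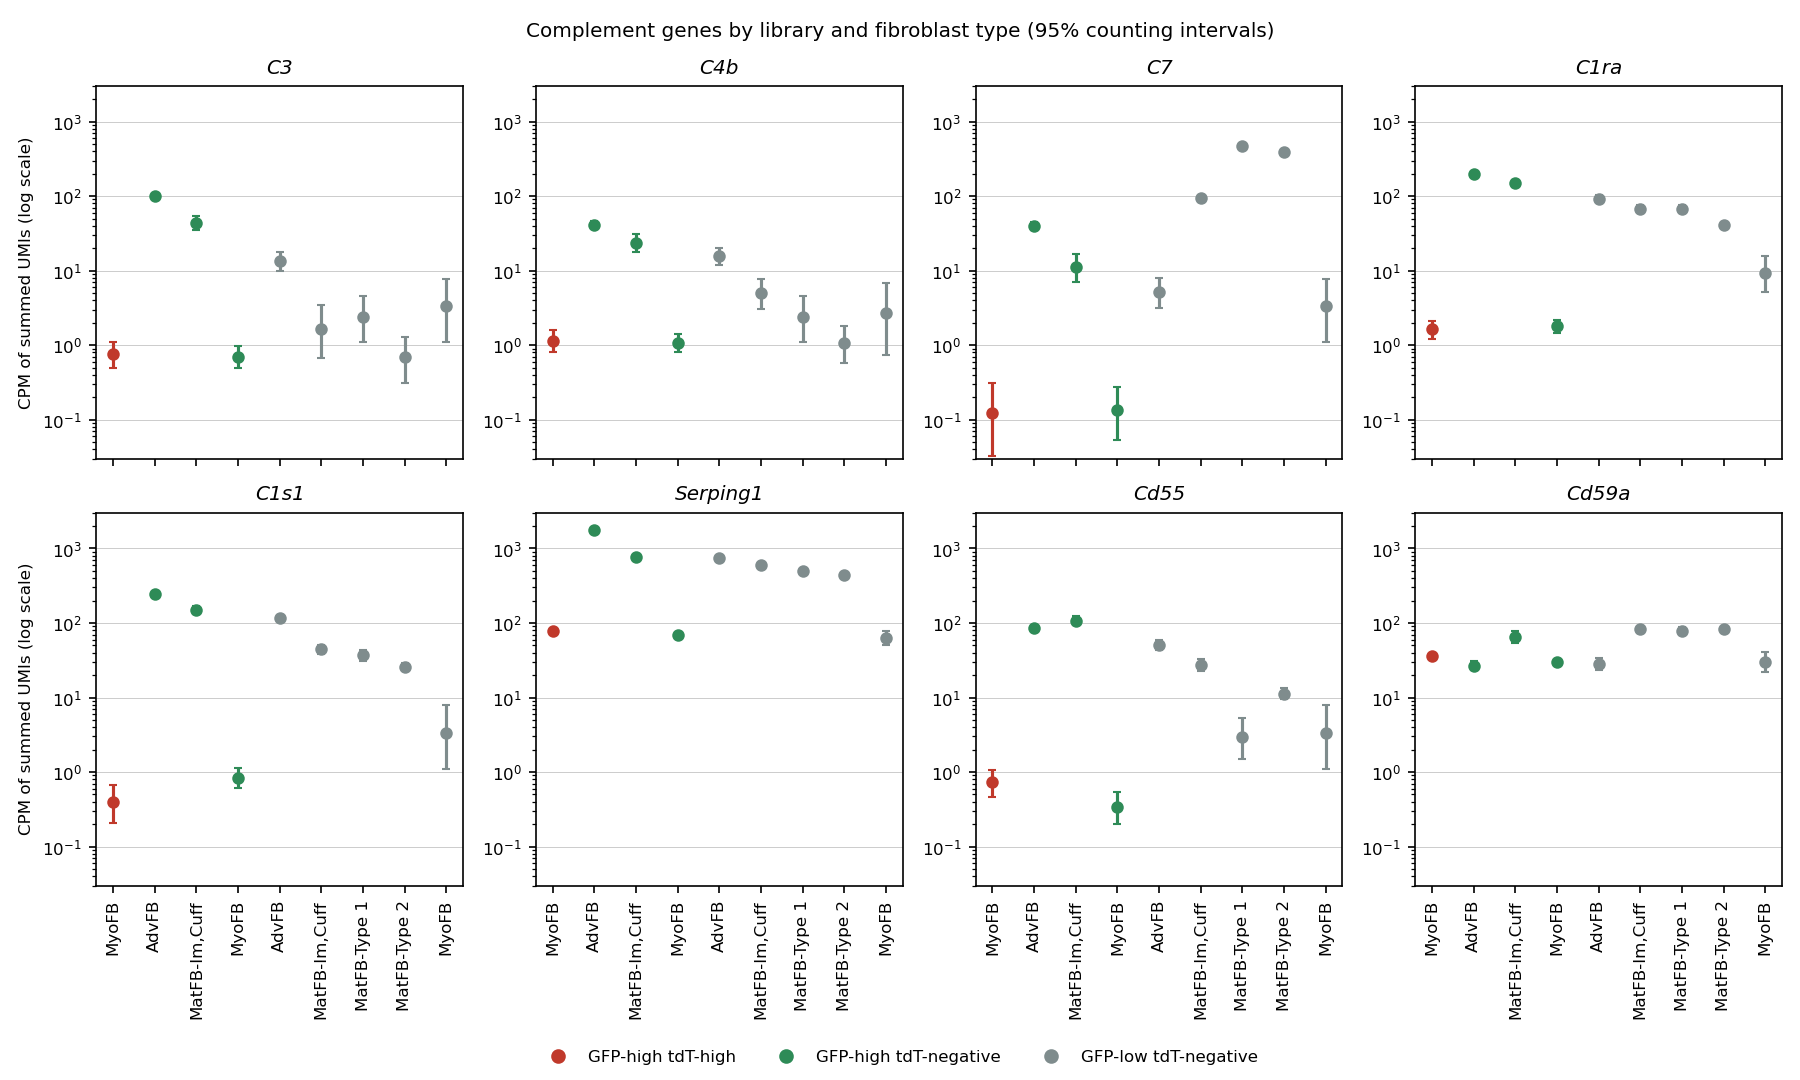
Level of each of the 8 genes in CPM (log axis) by library and authors' type, with points at the summed level and bars for the exact 95% counting interval. C3, C4b, C1ra, C1s1 and Serping1 are highest in GFP-high tdT-negative AdvFB, C7 in GFP-low tdT-negative MatFB-Type 1 (466 CPM) and Type 2 (387 CPM), and Cd59a stays within 26.8 to 82.3 CPM in all groups drawn.

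C1ra, the C1r protease, reached 200 CPM (190 to 210) in GFP-high tdT-negative AdvFB and 148 CPM (132 to 165) in MatFB-Im,Cuff of that library. Among GFP-low tdT-negative cells it stood at 92.1 CPM in AdvFB, 68.0 CPM in MatFB-Im,Cuff, 66.9 CPM in MatFB-Type 1 and 40.7 CPM in MatFB-Type 2. MyoFB held 1.63 CPM among GFP-high tdT-high cells and 1.79 CPM among GFP-high tdT-negative cells. The 66 GFP-low tdT-negative MyoFB cells held 9.39 CPM (5.13 to 15.7), from 14 UMIs. Neighbours among the 6 AdvFB and MatFB groups were apart beyond counting error except MatFB-Im,Cuff and MatFB-Type 1, both GFP-low tdT-negative. A C1ra UMI was found in 55.5% (49.9 to 60.9) of thinned GFP-high tdT-negative AdvFB cells, and in 0.677% of thinned MyoFB cells of that library, a type in which the gene was near 0. Median depths before thinning were 24678 UMIs in those AdvFB cells and 19005 UMIs in those MyoFB cells, and the shares with all UMIs kept were 85.7% and 3.01%.

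C1s1, the C1s protease, had the same order of the 6 highest groups. Its level was 242 CPM (231 to 252) in GFP-high tdT-negative AdvFB and 149 CPM in MatFB-Im,Cuff of that library, against 116, 44.6, 36.8 and 25.9 CPM in AdvFB, MatFB-Im,Cuff, MatFB-Type 1 and MatFB-Type 2 sorted as GFP-low tdT-negative. MyoFB held 0.393 CPM among GFP-high tdT-high cells and 0.836 CPM among GFP-high tdT-negative cells. The thinned share was 57.3% in GFP-high tdT-negative AdvFB and 0.639% in MyoFB. In both protease genes the UMIs were spread over many cells: the 10 richest of the 328 GFP-high tdT-negative AdvFB cells held 12.7% of the C1ra UMIs and 11.4% of the C1s1 UMIs.

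Serping1, the inhibitor of both proteases, was detected in every one of the fibroblast types. Its level was 1754 CPM (1725 to 1782) in GFP-high tdT-negative AdvFB and 772 CPM in MatFB-Im,Cuff of that library. The GFP-low tdT-negative library held 737 CPM in AdvFB, 604 CPM in MatFB-Im,Cuff, 492 CPM in MatFB-Type 1 and 447 CPM in MatFB-Type 2. MyoFB stood at 78.9 CPM among GFP-high tdT-high cells and 69.9 CPM among GFP-high tdT-negative cells, 3.99% of the AdvFB level of that library. Unlike the protease genes, Serping1 had a UMI in 28.3% of thinned GFP-high tdT-negative MyoFB cells, beside 97.6% of thinned AdvFB cells. Its GFP-high tdT-negative MatFB-Im,Cuff and GFP-low tdT-negative AdvFB levels overlapped.

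C4b and C3, the substrates at the centre of the cascade, were mainly found in AdvFB and MatFB-Im,Cuff. C4b reached 41.3 CPM (37.0 to 45.9) in GFP-high tdT-negative AdvFB and 23.7 CPM in MatFB-Im,Cuff of that library, against 15.8 CPM in AdvFB and 4.98 CPM in MatFB-Im,Cuff sorted as GFP-low tdT-negative. MatFB-Type 1 held 2.42 CPM, MatFB-Type 2 held 1.07 CPM, and MyoFB 1.15 CPM in GFP-high tdT-high cells and 1.08 CPM in GFP-high tdT-negative cells. Among groups of at least 50 cells, C4b was thus apart from both of these GFP-high MyoFB levels, beyond counting error, in 4, both of AdvFB and both of MatFB-Im,Cuff. The 66 GFP-low tdT-negative MyoFB cells were not part of that comparison.

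C3 reached 101 CPM (94.1 to 108) in GFP-high tdT-negative AdvFB, from 829 UMIs, and 43.5 CPM (34.9 to 53.4) in MatFB-Im,Cuff of that library. The GFP-low tdT-negative library held 13.3 CPM (9.85 to 17.6) in AdvFB, 1.66 CPM in MatFB-Im,Cuff, 2.42 CPM in MatFB-Type 1 and 0.687 CPM in MatFB-Type 2. MyoFB held 0.756 CPM among GFP-high tdT-high cells and 0.703 CPM among GFP-high tdT-negative cells. Among groups of at least 50 cells, the 3 highest were apart from each other and from the rest beyond counting error. C3 was carried by few cells: 97 of the 328 GFP-high tdT-negative AdvFB cells had a UMI, the richest had 80, 32 had 5 or more, and the 10 richest held 54.2% of the UMIs. After thinning, 14.0% (10.5 to 18.3) of those AdvFB cells had a C3 UMI and 0.113% of the MyoFB cells.

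In GFP-low tdT-negative AdvFB, 49 C3 UMIs came from 11 of 148 cells, and 33 of the 49 from 1 cell; without that cell the level was 4.38 CPM. In GFP-high tdT-negative MatFB-Im,Cuff, 90 UMIs came from 17 of 110 cells, 25 of them from 1 cell. The 44 GFP-high tdT-negative MatFB-Type 2 cells held 18.0 CPM of C3 (10.3 to 29.2), 9 of 16 UMIs in 1 cell. The C3 levels of those groups therefore rest on a handful of cells. The plot of C3 and C7 UMIs per cell shows both genes.

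**Figure D2:**
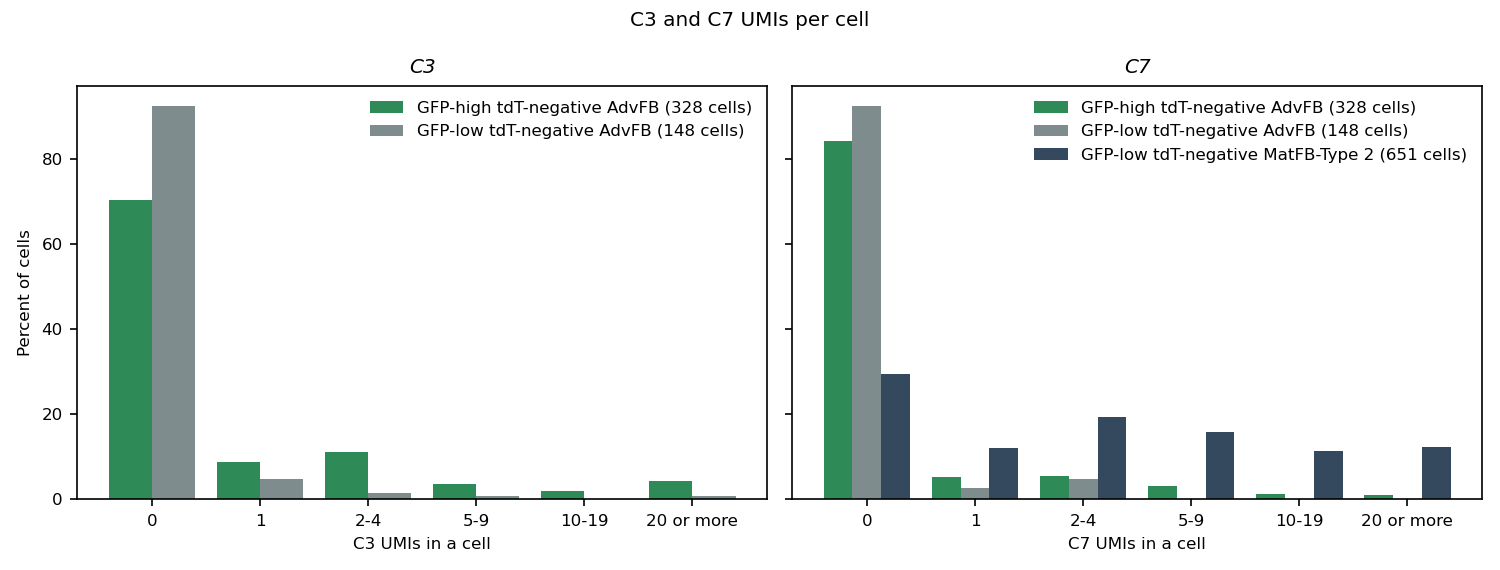
Percent of cells by number of UMIs per cell for C3 in AdvFB of the GFP-high tdT-negative and GFP-low tdT-negative libraries, and for C7 in the same cells and in GFP-low tdT-negative MatFB-Type 2. C3 was found in 29.6% and 7.43% of the AdvFB cells, and C7 in 70.7% of the MatFB-Type 2 cells.

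C7, the pore component, had a different distribution. It stood at 466 CPM (445 to 489) in MatFB-Type 1, 387 CPM (377 to 398) in MatFB-Type 2 and 93.2 CPM (84.2 to 103) in MatFB-Im,Cuff sorted as GFP-low tdT-negative, and at 5.16 CPM in AdvFB there. Of the 199 MatFB-Type 1 cells, 191 had Y-linked and no Xist UMIs. In such cells alone C7 stood at 446 CPM (424 to 469) in MatFB-Type 1 and 426 CPM (408 to 444) in MatFB-Type 2, which overlap. The GFP-high tdT-negative library held 39.8 CPM (35.6 to 44.3) in AdvFB and 11.1 CPM in MatFB-Im,Cuff. MyoFB held 0.121 CPM in GFP-high tdT-high cells and 0.133 CPM in GFP-high tdT-negative cells. In MatFB-Type 2 sorted as GFP-low tdT-negative a C7 UMI was found in 48.8% of thinned cells, and 5076 UMIs came from 460 of 651 cells. In GFP-high tdT-negative AdvFB the gene was in 52 of 328 cells, 1 cell held 95 of 327 UMIs, the 10 richest held 70.3%, and the level without the richest was 28.3 CPM. The few MatFB-Type 2 cells sorted as GFP-high tdT-negative (44 cells) held 301 CPM of C7.

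Cd55, the decay-accelerating factor, was highest in MatFB-Im,Cuff and AdvFB sorted as GFP-high tdT-negative. Its level was 108 CPM (94.0 at the least) in MatFB-Im,Cuff and 86.5 CPM (80.3 to 93.1) in AdvFB there, against 27.3 CPM and 51.1 CPM in the same types sorted as GFP-low tdT-negative. MatFB-Type 1 held 2.96 CPM and MatFB-Type 2 held 11.3 CPM. MyoFB held 0.726 CPM in GFP-high tdT-high cells and 0.342 CPM in GFP-high tdT-negative cells. Among groups of at least 50 cells, the 5 highest were each apart from the next beyond counting error. MatFB-Im,Cuff came before AdvFB in the GFP-high tdT-negative library, unlike in C3, C4b, C1ra, C1s1 and Serping1. The thinned share was 37.3% in GFP-high tdT-negative MatFB-Im,Cuff, 24.1% in AdvFB and 0.226% in MyoFB.

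Cd59a, the pore inhibitor, was present in all of the types at levels closer to each other. It stood at 82.3 CPM in MatFB-Type 2, 82.3 CPM in MatFB-Im,Cuff and 77.6 CPM in MatFB-Type 1 sorted as GFP-low tdT-negative, and at 65.2 CPM in MatFB-Im,Cuff sorted as GFP-high tdT-negative, levels that overlapped neighbour by neighbour. AdvFB held 26.8 CPM in GFP-high tdT-negative cells and 28.2 CPM in GFP-low tdT-negative cells, and MyoFB 35.8 CPM in GFP-high tdT-high cells and 30.2 CPM in GFP-high tdT-negative cells. The lowest levels over all libraries were in dividing cells, with 9.64 CPM (6.30 to 14.1) in DivFB-S/G2M and 15.1 CPM in DivFB-G2M. Cd59a had a UMI in 13.5% of thinned GFP-high tdT-negative MyoFB cells and in 9.76% of thinned AdvFB cells of that library.

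Single cells differed in how many of the 8 genes they held. The median GFP-high tdT-negative AdvFB cell had UMIs of 4 of the 8 genes, and 76.8% of these cells had 4 or more; in MatFB-Im,Cuff of that library 71.8% had 4 or more. Among GFP-low tdT-negative cells the median was 3 in AdvFB and in each MatFB type, with 4 or more in 45.9% of AdvFB and 39.5% to 48.2% of MatFB cells. MyoFB cells had a median of 1, and 2 of 1458 cells among GFP-high tdT-high cells and 3 of 2659 cells among GFP-high tdT-negative cells had 4 or more. Of the 66 GFP-low tdT-negative MyoFB cells, also with a median of 1, 2 (3.03%) had 4 or more. Thinned to 5000 UMIs, the shares with 4 or more were 23.2% in AdvFB and 27.3% in MatFB-Im,Cuff of the GFP-high tdT-negative gate. That order is the reverse of the one at full depth, but these shares have no interval, so neither order is established. The thinned shares were 7.43% in AdvFB and 8.78%, 7.54% and 6.61% in MatFB-Im,Cuff, MatFB-Type 1 and MatFB-Type 2 of the GFP-low tdT-negative gate, and 0 in MyoFB of both GFP-high libraries.

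Groups were then compared as the log2 ratio of CPM with 1 CPM added to each side. A gene was counted where the higher side had at least 10 CPM and called where the ratio reached 2-fold. Fold values in the text are ratios of CPM without the added 1, with an exact 95% interval. Comparisons by call needed 100 cells on both sides; those below share libraries and cell groups with each other, so their counts are not independent. The share of all counted genes called in the same comparison is given beside each count.

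AdvFB and MyoFB differed in all of the 8 genes but Cd59a. Among GFP-high tdT-negative cells, AdvFB over MyoFB, 7 of 8 genes were higher and 0 lower, where 11% of all counted genes were higher and 11.9% lower. The median of the 8 log2 ratios was 5.54, against -0.27 over all genes. C3 was 144-fold higher in AdvFB (103 to 205), C1s1 289-fold, C1ra 112-fold, Cd55 253-fold, C7 299-fold, C4b 38.1-fold and Serping1 25.1-fold (24.2 to 26.0). Cd59a was not called, at 26.8 CPM in AdvFB and 30.2 CPM in MyoFB, and its log2 ratio of -0.17 turned to 0.05 under TMM scaling, which moved all log2 ratios of that comparison by 0.22.

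Between AdvFB and MatFB-Im,Cuff sorted as GFP-high tdT-negative, 3 of 8 genes were higher in AdvFB and 1 lower, beside 5.57% of all counted genes higher and 7.34% lower. C3 was 2.32-fold (1.87 to 2.92), C7 3.58-fold (2.35 to 5.73) and Serping1 2.27-fold higher in AdvFB, and Cd59a was 2.43-fold lower. C1ra differed by 1.35-fold, C1s1 by 1.62-fold and C4b by 1.74-fold, below the call, and Cd55 was at 0.804 of its MatFB-Im,Cuff level. In Xist cells alone C3 stood at 134 CPM in AdvFB and 72.5 CPM in MatFB-Im,Cuff and C7 at 29.3 and 17.6 CPM, neither 2-fold apart. In Y-linked cells C7 stood at 50.2 and 1.12 CPM. There 95 of the 222 AdvFB UMIs came from 1 cell, and the 48 MatFB-Im,Cuff cells held 1 UMI. TMM scaling moved the log2 ratios of this comparison by 0.15. Among GFP-low tdT-negative cells the same pair of types gave 3 higher and 2 lower, beside 11.1% higher and 7.93% lower. There C3 was 8.02-fold (3.61 to 21.0), C4b 3.16-fold and C1s1 2.60-fold higher in AdvFB, C7 was 18.1-fold lower (11.4 at the least) and Cd59a 2.91-fold lower. That C3 value rests on 1 cell: without it AdvFB stood at 4.38 CPM, under the 10 CPM a call needs. Without the 48 AdvFB cells rich in smooth muscle genes, described further on, Cd55 became a call, at 73.2 CPM in AdvFB and 27.3 CPM in MatFB-Im,Cuff (2.69-fold). C3 was no longer counted, so 5 genes were called again, with Cd55 in place of C3. The 1 cell on which the C3 value rests is among the 48, so the loss of C3 is not a separate check. In Xist cells alone Cd55 stood at 9.88 CPM in AdvFB and 21.1 CPM in MatFB-Im,Cuff.

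Against the other MatFB types sorted as GFP-low tdT-negative, AdvFB again had more C3, C4b and C1s1 and less C7 and Cd59a. Over MatFB-Type 1, 4 genes were higher and 2 lower (15.3% and 14.2% of all counted genes). Of the 199 MatFB-Type 1 cells 191 had Y-linked and no Xist UMIs, beside 82 of the 148 AdvFB cells. Type therefore cannot be told apart from animal or sex in that comparison. Over MatFB-Type 2, 5 were higher and 2 lower (14.1% and 11.9%). Cd55 was 17.3-fold higher in AdvFB than in MatFB-Type 1 (9.44 to 35.2) and 4.52-fold higher than in MatFB-Type 2. C3 was 5.50-fold and 19.4-fold higher, C4b 6.52-fold and 14.8-fold, and C1s1 3.15-fold and 4.47-fold, in that order of types. C1ra was called against MatFB-Type 2 alone, at 2.26-fold. C7 was 90.4-fold lower in AdvFB than in MatFB-Type 1 and 75.0-fold lower than in MatFB-Type 2, and Cd59a was 2.75-fold and 2.91-fold lower. Without the cell that held 33 of the 49 C3 UMIs, C3 stood at 4.38 CPM in these AdvFB cells, under the 10 CPM a call needs. It was under that minimum, at 5.91 CPM, without the AdvFB cells rich in smooth muscle genes as well. The same cell is among those, at 2039 CPM of smooth muscle genes, so this is not a separate check. In Xist cells alone Cd55 stood at 9.88 CPM in AdvFB and 10.6 CPM in MatFB-Type 2.

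Within the MatFB types sorted as GFP-low tdT-negative 2 genes were called, Cd55 and C7. Between MatFB-Im,Cuff and MatFB-Type 1, 6 genes were counted, with 1 higher and 1 lower, beside 6.5% higher and 5.65% lower. Cells with Y-linked and no Xist UMIs were 83 of 205 in MatFB-Im,Cuff and 191 of 199 in MatFB-Type 1. Between MatFB-Im,Cuff and MatFB-Type 2, 6 were counted, with 1 higher and 1 lower, beside 3.66% higher and 2.48% lower. Both times the higher gene was Cd55, at 9.22-fold and 2.41-fold, and the lower one C7, at 5.01-fold and 4.16-fold. C1ra, C1s1, Serping1 and Cd59a lay within 1.72-fold in both.

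**Figure D3:**
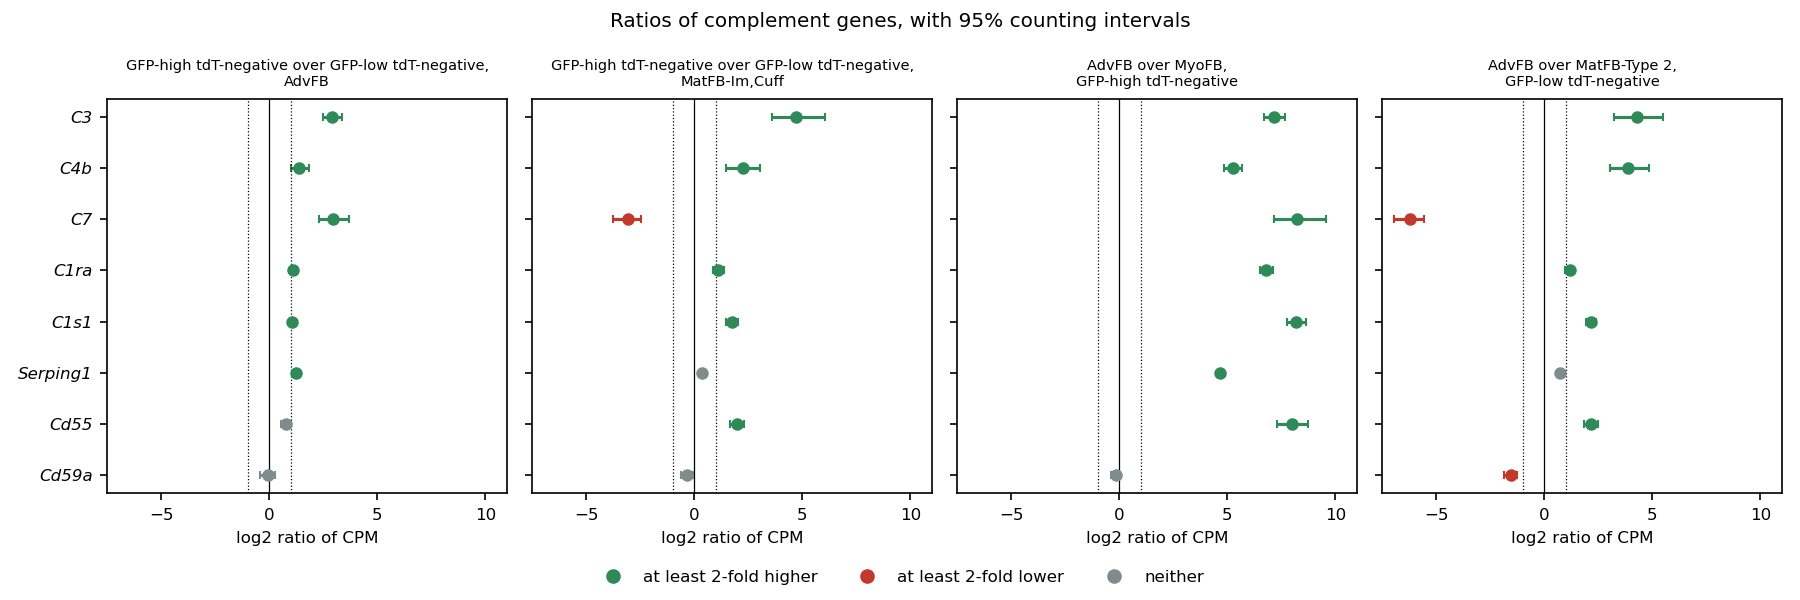
Log2 ratio of CPM for the 8 genes in 4 comparisons, with exact 95% counting intervals and dotted lines at 2-fold. C7 is higher in GFP-high tdT-negative than in GFP-low tdT-negative AdvFB (7.71-fold) and lower in GFP-high tdT-negative than in GFP-low tdT-negative MatFB-Im,Cuff (8.39-fold), while Cd59a stays near 0 between the gates.

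Within AdvFB and within MatFB-Im,Cuff, most of the 8 genes were called between the gates. Among AdvFB, GFP-high tdT-negative set against GFP-low tdT-negative, 6 of 8 genes were higher and 0 lower, beside 3.06% of all counted genes higher and 4.94% lower; the median log2 ratio was 1.18 over the 8 genes and 0.04 over all. C3 was 7.58-fold higher (5.68 to 10.3), C7 7.71-fold (4.86 to 13.0), C4b 2.62-fold (1.98 to 3.52), Serping1 2.38-fold (2.28 to 2.48), C1ra 2.17-fold (1.93 to 2.44) and C1s1 2.08-fold (1.87 to 2.32). Cd55 was 1.69-fold higher (1.44 to 2.00), under the call, and Cd59a stood at 0.948 (0.747 to 1.21). Without the richest cell on each side C3 was at 91.5 CPM in GFP-high tdT-negative and 4.38 CPM in GFP-low tdT-negative AdvFB, a log2 ratio of 4.10, and Cd55 passed the call at 1.03.

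The AdvFB cells of the gates were not alike in marker genes. Adventitial markers summed to 17852 CPM in GFP-high tdT-negative and 9683 CPM in GFP-low tdT-negative AdvFB, with 11 of 12 markers at 10 CPM or more in both, and their part in the result was not tested. Immune markers summed to 34.4 CPM (1 of 10 at 10 CPM or more) and 18.5 CPM (0 of 10), with Adgre1 at 0 in both and Ptprc at 0 in GFP-low tdT-negative AdvFB. A list of 8 smooth muscle genes summed to 105 CPM in GFP-high tdT-negative AdvFB and 3620 CPM in GFP-low tdT-negative AdvFB; 2 of 328 cells and 48 of 148 cells had 2000 CPM or more. Those 48 cells held 36.8 CPM of C1ra, 48.2 CPM of C1s1, 420 CPM of Serping1 and 1.75 CPM of Cd55, while the other 100 held 117, 146, 879 and 73.2 CPM of these genes. With such cells left out of both gates, C3 was 17.2-fold, C7 8.53-fold and C4b 2.85-fold higher in GFP-high tdT-negative AdvFB. The cell with 33 of the 49 C3 UMIs of GFP-low tdT-negative AdvFB is among the 48, at 2039 CPM of smooth muscle genes. The C3 value therefore turns on 1 cell close to the 2000 CPM cut. Serping1 stayed just over the call at 2.00-fold, C1ra at 1.72-fold and C1s1 at 1.66-fold were no longer called, and Cd55 stood at 1.18-fold.

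Among MatFB-Im,Cuff, GFP-high tdT-negative set against GFP-low tdT-negative, 5 of 8 genes were higher and 1 lower, beside 8.82% higher and 4.67% lower. C3 was 26.2-fold higher (12.2 to 67.0), C4b 4.75-fold, Cd55 3.95-fold (3.14 to 4.99), C1s1 3.35-fold and C1ra 2.17-fold. C7 was 8.39-fold lower (5.51 at the least). The GFP-low tdT-negative side held 7 C3 UMIs in 3 cells, and without the richest cell on each side the C3 levels were 31.7 CPM among GFP-high tdT-negative and 0.476 CPM among GFP-low tdT-negative MatFB-Im,Cuff, the last from 2 UMIs. Serping1 differed by 1.28-fold and Cd59a stood at 0.792. The 2 MatFB-Im,Cuff groups differed in type markers as well: adventitial markers summed to 5264 CPM in GFP-high tdT-negative and 2713 CPM in GFP-low tdT-negative cells, and alveolar markers to 4989 CPM and 11848 CPM. Ly6a and Dpp4 of the adventitial list were at 0 in both, and the part of these marker levels in the result was not tested.

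Over all cells, the gates compare mixtures of types. GFP-high tdT-negative set against GFP-low tdT-negative, 7 genes were counted, with 1 higher and 2 lower, beside 9.22% higher and 7.76% lower. C3 was higher, with 14.2 CPM among GFP-high tdT-negative cells and 3.01 CPM in GFP-low tdT-negative cells (4.71-fold, 3.75 at the least), C7 lower at 10.5 CPM and 272 CPM, and Cd59a lower at 31.1 CPM and 70.3 CPM. Serping1 was 1.64-fold and C1ra 1.72-fold lower, below the call, although both were higher in GFP-high tdT-negative AdvFB and MatFB-Im,Cuff. MyoFB made up 2659 of the 3347 GFP-high tdT-negative and 66 of the 1284 GFP-low tdT-negative cells.

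The GFP-high tdT-high library was low in all of the 8 genes but Cd59a. Over the GFP-high tdT-negative library 7 genes were counted, with 0 higher and 6 lower, beside 0.947% higher and 2.41% lower. C1s1 was 29.1-fold lower, C3 16.3-fold, C1ra 11.1-fold, C7 10.1-fold, Cd55 5.43-fold and Serping1 3.65-fold, and Cd59a stood at 1.13. Over the GFP-low tdT-negative library 6 were counted, with 0 higher and 5 lower, beside 9.27% higher and 9.25% lower, and C7 was 261-fold lower, at 1.04 CPM in GFP-high tdT-high and 272 CPM in GFP-low tdT-negative cells. Cd59a was 1.99-fold lower there, with a log2 ratio of -0.98, and passed the call under TMM scaling, which moved that comparison by -0.12. The GFP-high tdT-high library held 1458 MyoFB cells of its 1511 and 4 AdvFB cells.

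Within each MyoFB type, the tdTomato label was not accompanied by a called difference. In MyoFB-IMR, MyoFB-Int and MyoFB-Ter, GFP-high tdT-high set against GFP-high tdT-negative, 2 genes were counted, Serping1 and Cd59a, and 0 were called in either direction. Of all counted genes 0.373% were higher and 0.0517% lower in MyoFB-IMR, 1.18% and 0.65% in MyoFB-Int, and 3.99% and 2.84% in MyoFB-Ter. Serping1 stood at 50.5 CPM in GFP-high tdT-high and 50.0 CPM in GFP-high tdT-negative MyoFB-IMR, at 94.1 and 79.9 CPM in MyoFB-Int, and at 87.5 and 95.9 CPM in MyoFB-Ter. The intervals of its ratio were 0.909 to 1.12, 1.11 to 1.26 and 0.793 to 1.05. The remaining 6 genes were under 3 CPM in every one of these groups.

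Along the MyoFB types, MyoFB-Ter over MyoFB-IMR, Serping1 and Cd59a were both higher but under 2-fold in both GFP-high libraries. Serping1 was 1.73-fold higher (1.51 to 1.99) among GFP-high tdT-high cells and 1.92-fold (1.72 to 2.13) among GFP-high tdT-negative cells. Cd59a was 1.52-fold and 1.47-fold higher. Counted as calls, 0 of 2 were higher and 0 lower in both libraries, beside 6.61% higher and 7.56% lower among GFP-high tdT-high cells and 3.47% higher and 4.16% lower among GFP-high tdT-negative cells.

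The 328 GFP-high tdT-negative AdvFB cells were also split by genes of the adventitial list. Cells with a UMI of Ly6a, a surface marker of adventitial progenitors, numbered 133 and held 150 CPM of C3 (138 to 163), against 60.7 CPM (53.7 to 68.3) in the 195 without. Serping1 stood at 2178 and 1405 CPM and Cd55 at 109 and 68.2 CPM in the same groups, while C4b stood at 41.0 and 41.4 CPM. Cells with a UMI of Pi16, another adventitial marker, numbered 188 and held 56.9 CPM of C7 (50.6 to 63.9), against 12.3 CPM (8.78 to 16.9) in the 140 without. Cd55 stood at 106 and 54.7 CPM, C4b at 34.0 and 52.8 CPM and C3 at 104 and 95.6 CPM. C3 thus differed with Ly6a and C7 with Pi16, although cells with either marker were deeper. Median depth was 27768 against 23302 UMIs for Ly6a and 26604 against 22351 UMIs for Pi16, and all these cells are from 1 library. C3 and C7 were each concentrated in few cells: the 10 richest of the 328 for C3 held 54.2% of its UMIs, and the 10 richest for C7 held 70.3%. Of the 288 C7 UMIs in the Pi16 cells, 95 came from 1 cell. A C7 UMI was found in 39 of the 188 cells with Pi16 and 13 of the 140 without.

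C3 and C4b went together between cells. The 97 GFP-high tdT-negative AdvFB cells with a C3 UMI held 95.9 CPM of C4b (84.4 to 109), against 15.9 CPM (12.7 to 19.5) in the 231 without. C1ra stood at 280 and 162 CPM, C1s1 at 328 and 201 CPM, and Serping1 at 2489 and 1412 CPM. Cd55 did the reverse, at 62.2 and 97.8 CPM, and Cd59a stood at 28.4 and 26.0 CPM. C7 stood at 27.6 and 45.4 CPM, but its richest cell held 95 UMIs, more than the 72 UMIs of all cells with C3. That cell is therefore among the cells without C3, which held 255 C7 UMIs. A C7 UMI was found in 14 of the 97 cells with C3 and 38 of the 231 without. No difference in C7 is read from these levels. Median depth was 26139 UMIs with and 23625 UMIs without C3. In GFP-low tdT-negative AdvFB Cd55 ran the other way, at 160 CPM in the 11 cells with C3 and 41.4 CPM in the 137 without. Its 48 UMIs in those 11 cells came from 3 of them. In GFP-high tdT-negative AdvFB C3 was also higher, and Cd55 lower, in cells with Xist than in cells with Y-linked transcripts, as given further on. The split by C3 was not tested within either.

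C1ra has a close copy, C1rb, and the counts of the pair differed between cells with Xist and cells with Y-linked transcripts. Of the stretches of 50 bases in the last 500 bases of C1ra transcripts, 19.1% also occur in C1rb. In GFP-high tdT-negative AdvFB, 8 C1rb UMIs in 1 of 86 cells came from cells with Xist and no Y-linked UMI (3.35 CPM), and 563 in 100 of 188 cells from cells with Y-linked UMIs and no Xist (127 CPM). C1ra ran the other way, at 301 CPM in the Xist cells and 164 CPM in the Y-linked cells. The sum of the pair was 304 CPM (282 to 327) and 291 CPM (275 to 307), which overlap.

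C1rb was lower in the Xist cells of the other 4 groups drawn as well. C1rb was at 0 CPM in the Xist cells and 79.4 CPM in the Y-linked cells of GFP-high tdT-negative MatFB-Im,Cuff, at 1.98 and 30.2 CPM in GFP-low tdT-negative AdvFB, and at 0 and 19.3 CPM in GFP-low tdT-negative MatFB-Im,Cuff. In GFP-low tdT-negative MatFB-Type 2, 0 of 311 Xist cells and 60 of 248 Y-linked cells had a C1rb UMI. There C1ra was at 58.7 and 23.5 CPM, and the sum at 58.7 CPM (52.9 to 65.0) and 40.1 CPM (34.8 to 46.1), which do not overlap. MatFB-Type 1 held no C1rb UMI in 199 cells although 191 of them were Y-linked cells, and its C1ra level of 66.5 CPM in those cells lay above that of Y-linked MatFB-Type 2 cells. The sources used here do not give the pup of each cell, so animal and sex cannot be told apart.

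**Figure D4:**
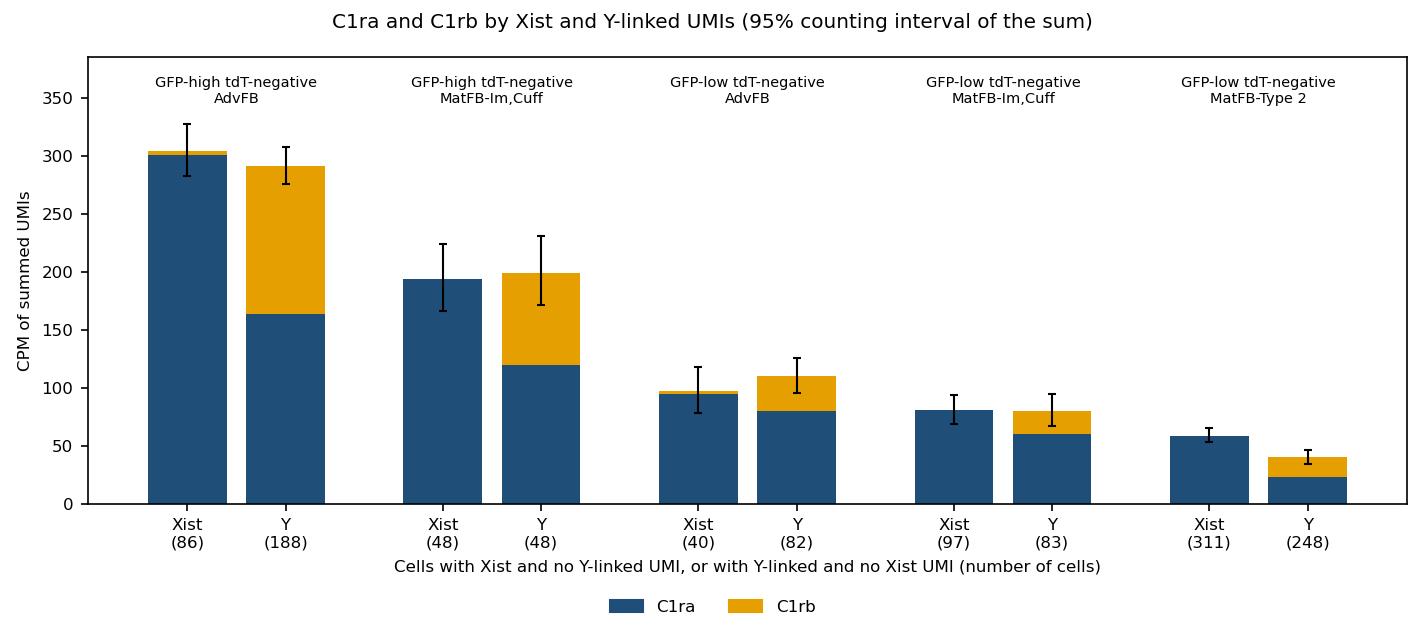
C1ra and C1rb levels in CPM, stacked, in cells with Xist and no Y-linked UMI and in cells with Y-linked and no Xist UMI, for 5 library-by-type groups. C1rb is at 0 to 3.35 CPM in the Xist cells and 16.7 to 127 CPM in the Y-linked cells, while the stacked sums of GFP-high tdT-negative AdvFB, 304 and 291 CPM, overlap by their intervals.

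Other members differed by that split too. In GFP-high tdT-negative AdvFB, C1s1 stood at 359 CPM in the Xist cells and 197 CPM in the Y-linked cells, C3 at 134 and 87.6 CPM, and Cd55 at 37.2 and 98.0 CPM. In GFP-low tdT-negative AdvFB C1s1 stood at 124 CPM in both (ratio 0.998, 0.797 to 1.24), and C3 ran the other way, at 2.96 CPM in the Xist cells and 19.4 CPM in the Y-linked cells, 33 UMIs of 1 cell being most of the C3 count of the type. Cd55 stood at 9.88 and 53.7 CPM there. In GFP-low tdT-negative MatFB-Type 2, C1s1 stood at 38.6 and 13.2 CPM (2.91-fold, 2.21 to 3.88). The Xist cells made up 26.2% of GFP-high tdT-negative and 27.0% of GFP-low tdT-negative AdvFB, and 43.6% and 47.3% of MatFB-Im,Cuff. These shares do not show whether the gates mixed animals alike. Among Y-linked AdvFB cells C1rb made up 43.8% of the UMIs of the C1r pair in GFP-high tdT-negative and 27.4% in GFP-low tdT-negative cells. Among Y-linked MatFB-Im,Cuff cells it made up 39.9% and 24.2%. GFP-high tdT-negative and GFP-low tdT-negative AdvFB held 86 and 40 Xist cells and 188 and 82 Y-linked cells, under the 100 cells on a side asked for above, so these are given as values and not as calls. The log2 ratio between the gates was 5.09 in the Xist cells and 2.11 in the Y-linked cells for C3, 2.93 and 3.07 for C7, 1.53 and 0.67 for C1s1, and 1.81 and 0.85 for Cd55. The Xist cells of GFP-low tdT-negative AdvFB held 3 UMIs each of C3 and C7. In the Y-linked cells of GFP-high tdT-negative AdvFB, 95 of the 222 C7 UMIs came from 1 cell. With C1rb added to C1ra, the log2 ratio between the gates was 1.29 in AdvFB and 1.27 in MatFB-Im,Cuff, beside 1.11 for C1ra alone in both. C1s1, C4b and Cd55 have copies as well (C1s2, C4a and Cd55b, with 77, 48 and 73 UMIs in all cells), and reads shared with them cannot be assigned with certainty.

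Of 60 complement genes in wider lists 58 were in the matrix, 50 besides the 8 genes, and 14 of those reached 10 CPM in a type over all libraries. Of the 14, 13 are described. Colec12, a scavenger receptor of the collectin family, stood at 474 CPM in AdvFB, 933 CPM in MatFB-Im,Cuff, 800 CPM in MatFB-Type 1, 1144 CPM in MatFB-Type 2 and 114 CPM in MyoFB. Csmd1, a gene with CUB and sushi domains, was highest in MyoFB, with 1667 CPM there and 141 CPM in AdvFB, and Thbd, thrombomodulin, stood between 33.3 and 154 CPM in all 5.

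C2, the partner of C4 in the convertase, stood at 32.6 CPM in AdvFB, 13.5 CPM in MatFB-Im,Cuff, 10.2 CPM in MatFB-Type 1, 6.31 CPM in MatFB-Type 2 and 1.03 CPM in MyoFB. Cfb, factor B of the alternative pathway, stood at 10.7 CPM in AdvFB and at most 1.11 CPM in the other 4. C6, the component that precedes C7 in the pore, was at 0 UMIs in AdvFB and at 12.3 CPM in MatFB-Type 2 and 6.48 CPM in MatFB-Type 1, the types in which C7 was highest. Colec11, a soluble collectin, stood at 33.8 CPM in AdvFB and at most 1.47 CPM elsewhere, and Clu, clusterin, at 17.7 CPM in AdvFB. The surface regulators Cd46, Cr1l and Cd59b varied less, at 36.6 to 68.3, 55.8 to 74.6 and 9.32 to 24.7 CPM, and Csmd3 reached 19.1 CPM in MatFB-Type 2.

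**Figure D5:**
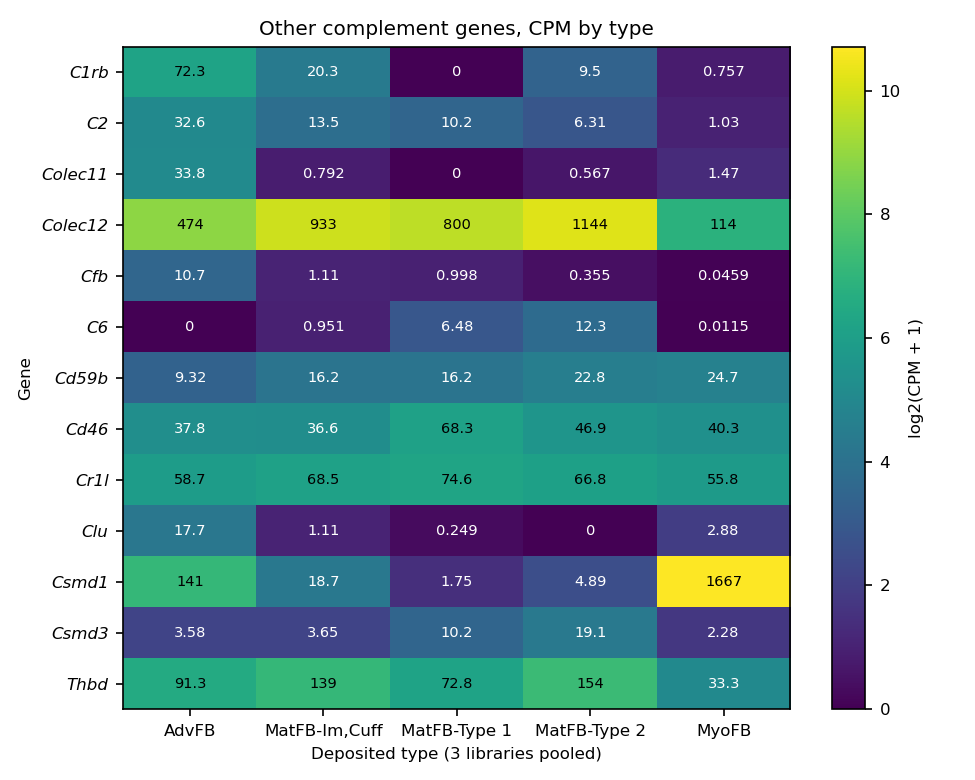
Level in CPM of 13 other complement genes with at least 10 CPM in a type, by authors' type over all libraries. C2, Colec11, Cfb and Clu are highest in AdvFB, C6 in MatFB-Type 2 and Csmd1 in MyoFB (1667 CPM).

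Counted as calls among all 50 other genes of the lists, where a gene enters if it reaches 10 CPM in either group compared, GFP-high tdT-negative set against GFP-low tdT-negative AdvFB gave 4 higher (C1rb, C2, Csmd1 and Thbd) and 2 lower (Colec11 and Cd93, which was at most 4.41 CPM in a type over all libraries) of 13, beside 3.06% higher and 4.94% lower over all counted genes. In MatFB-Im,Cuff it gave 2 higher (C1rb and Csmd1) and 0 lower of 9, beside 8.82% and 4.67%. AdvFB over MyoFB among GFP-high tdT-negative cells gave 9 higher and 2 lower of 13, beside 11% and 11.9%. Pooled over libraries, 36 of the 50 genes were under 10 CPM in every type, and 1 of them was at 0 UMIs. C1qa, C1qb and C1qc, the subunits that recruit C1r and C1s and that macrophages make, had 5, 2 and 1 UMIs in all 6142 cells. Hc, which encodes C5, had 9 UMIs, and the anaphylatoxin receptor genes C3ar1 and C5ar1 had 156 and 207.

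For each gene, the 3 genes whose log2 levels followed it most closely were named by Pearson's r over the 14 library-by-type groups with at least 50 cells, among 5494 candidates. The groups share libraries and depth, so r is a description. C3 was followed by Dcc (0.956), Il33 (0.952) and Pi16 (0.947), and C4b by Il33 (0.966), Lgi2 (0.963) and Adgrd1 (0.961). C1ra and C1s1 were each other's closest gene (0.992), next to Gsn (0.989) and Dlc1 (0.988) for C1ra and Efna5 (0.982) and Fap (0.981) for C1s1. Serping1 was followed by Steap3 (0.986), Bnc2 (0.983) and C1ra (0.982). Of the 24 names 3 were members of the list of 8 themselves.

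C7 was followed by Prkg2 (0.976), Slc36a2 (0.972) and Cmklr1 (0.972), Cd55 by Rbp4 (0.973), Lrrc17 (0.968) and Igfbp7 (0.965), and Cd59a by Rftn2 (0.941), Ubxn2a (0.932) and Sgk1 (0.930). Among the 8 genes, r was 0.939 between C3 and C4b, 0.355 between C3 and C7, 0.705 between C7 and Cd59a and 0.144 between C3 and Cd59a.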

How the data were processed

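Lungs were dissociated and sorted live, and the labels' protocols name 10x 3′ v3.1 kits for the libraries. The submitters' processing notes name Cell Ranger 7.0.0 and mm10. Raw UMI counts fill the matrix the authors deposited, and their deposited table gives each cell its gate, type and percent of mitochondrial UMIs (highest 19.3, lowest depth 5446 UMIs). The sources used here do not say how types were called or cells filtered, doublets were not removed here, and a further sorted population is not analysed here.

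All cells were kept. UMIs were summed per library and type and scaled to CPM; comparisons used log2 of CPM plus 1, at least 10 CPM on the higher side, at least 100 cells on each side and a call from 2-fold. Levels needed 50 cells. Intervals (95%: Poisson, conditional binomial, Clopper-Pearson) cover counting error only, and a count of 0 allows 3 counts (0.0869 CPM for GFP-high tdT-high, 0.0437 CPM for GFP-high tdT-negative and 0.113 CPM for GFP-low tdT-negative cells). The ratio calculation was tested on simulated data. The 8 genes, the lists of other complement genes and the markers were chosen with earlier results of these data known. All 8 genes were named, other complement genes from 10 CPM in a type (1 is not reported here, though it is in the counts), and the 3 closest genes of each among those with at least 50 CPM in their highest group. Cells were thinned with a fixed seed. The alternatives covered scaling, thinning, the pseudocount, the level minimum, the fold threshold and cell filters. Those added after seeing the data were the splits by Xist and Y-linked UMIs, AdvFB without smooth muscle genes, leaving out the richest cell and summing C1ra with C1rb. Coordinates are from GENCODE M21 on GRCm38 and promoters from RefSeq on GRCm38.p6. Values were computed in Python 3.11.15 with scipy 1.17.1, numpy 2.4.6 and pandas 2.3.3, plots drawn with matplotlib 3.10.9 and, for TMM factors, edgeR 4.0.16.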

Additional observations from a re-analysis of the deposited data

Results flagged for a closer look

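C7 was higher in GFP-high tdT-negative than in GFP-low tdT-negative AdvFB, with a log2 ratio of 2.73, and lower in GFP-high tdT-negative than in GFP-low tdT-negative MatFB-Im,Cuff, with a log2 ratio of -2.96. The levels were 39.8 and 5.16 CPM in AdvFB and 11.1 and 93.2 CPM in MatFB-Im,Cuff. It stood out because the gate contrast had opposite signs in the 2 types; with 1 library per gate the difference was not tested. Without the richest cell on each side the log2 ratios were 2.45 in AdvFB and -3.42 in MatFB-Im,Cuff. Within cells with Xist they were 2.93 and -2.10, and within cells with Y-linked transcripts 3.07 and -5.36, each with under 100 cells on at least 1 side. The 2.93 rests on 3 UMIs in 40 GFP-low tdT-negative AdvFB cells, and the -5.36 on 1 UMI in 48 GFP-high tdT-negative MatFB-Im,Cuff cells. For the 3.07, 95 of the 222 UMIs in GFP-high tdT-negative AdvFB came from 1 cell. Alveolar markers summed to 4989 CPM in GFP-high tdT-negative and 11848 CPM in GFP-low tdT-negative MatFB-Im,Cuff, and their part in the result was not tested.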

How the results depend on the processing

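Of 173 recounts of called genes under alternatives listed at the outset, 160 were within 1.5 times the count in the text, and so were 35 of 40 under alternatives added after seeing the data. TMM, median-of-ratios and filtered-total scaling, thinning, means of CPM per cell, the mitochondrial filter and leaving out DivFB cells or AdvFB cells with smooth muscle genes moved no count by more. With a 1.5-fold call the counts became 5 in place of 3 for all cells of GFP-high tdT-negative set against GFP-low tdT-negative, 2 in place of 0 and 1 in place of 0 for MyoFB-Ter over MyoFB-IMR in the GFP-high tdT-high and GFP-high tdT-negative libraries, and 4 in place of 2 for MatFB-Im,Cuff over MatFB-Type 2. A minimum of 50 CPM left 1 of 6 for GFP-high tdT-high set against GFP-high tdT-negative, 3 of 5 for GFP-high tdT-high set against GFP-low tdT-negative, 3 of 5 for AdvFB over MatFB-Im,Cuff among GFP-low tdT-negative cells, and 1 of 2 for MatFB-Im,Cuff over MatFB-Type 1 and over MatFB-Type 2, because fewer genes were counted. With no minimum, 1 gene was called in place of 0 for GFP-high tdT-high set against GFP-high tdT-negative MyoFB-Ter and for MyoFB-Ter over MyoFB-IMR in both libraries, and a pseudocount of 5 left 1 of 2 for MatFB-Im,Cuff over MatFB-Type 2. In cells with Xist alone, with under 100 cells on a side, the counts were 2 in place of 4 for AdvFB over MatFB-Im,Cuff among GFP-high tdT-negative cells, 4 in place of 7 for AdvFB over MatFB-Type 2, 5 in place of 2 for MatFB-Im,Cuff over MatFB-Type 1 and 1 in place of 2 for MatFB-Im,Cuff over MatFB-Type 2; in cells with Y-linked transcripts alone the last was 4. The log2 ratio of C4b for AdvFB over MatFB-Type 1 became -1.06 in Xist cells, of which MatFB-Type 1 held 2, and that of Cd55 for AdvFB over MatFB-Type 2 became -0.097 (9.88 and 10.6 CPM); the cause was not tested. Of single-gene ratios 631 of 706 moved by less than their interval under the alternatives listed at the outset and 0 changed sign where called. Under the alternatives added after seeing the data, 237 single-gene ratios moved by less than their interval. Another 115 moved by more, and the 2 named above changed sign. No paired analysis was possible because each gate has 1 library, and no replicate could be left out. Levels by the deposited cluster column were not run, since that column holds the gate. Depth limits the genes under 10 CPM, for which a 2-fold difference was not read.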
